A study of Mus musculus with 10 samples.

Results

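The genes described here are 45 listed mouse genes of glutathione, peroxide and superoxide chemistry. They were chosen by name as known enzymes of that chemistry, with earlier results of these data known. A gene counted as measured where a row of the deposited array table named it alone, and 39 of the 45 did, out of 30142 genes tested in all. Gsta1, Gstp2, Gclm and Prdx1 appear only in rows that name a further gene, Prdx5 and Prdx6 have no row under a single symbol, and these 6 are not analysed here. The 39 comprise 19 glutathione transferases, 6 glutathione peroxidases, 3 enzymes of glutathione supply, 5 members of the peroxiredoxin and thioredoxin system, 4 dismutases and catalase, and the 2 stress markers Nqo1 and Hmox1.

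RNA came from luminal epithelial cells sorted from the prostates of male mice carrying the Hoxb13-rtTA and TetO-H2BGFP transgenes, in which doxycycline switches on a nuclear green fluorescent protein in cells that use the Hoxb13 promoter. Every mouse in every group drank doxycycline at 2 mg/ml for 1 week before death. Regenerated samples (n = 4) came from mice castrated at 12 weeks of age and allowed 6 weeks for regression. They were then implanted with silastic testosterone capsules for 4 weeks, so time since castration also differed between regenerated and castrated mice. Castrated samples (n = 3) came from mice castrated at the same age, with 6 weeks allowed for regression, and intact samples (n = 3) came from untreated mice. The sort kept cells with the reporter and CD24 and with intermediate CD49f, and removed cells with CD45, F4/80 or CD11b. Arrays of a group are labelled as biological replicates, and whether each holds 1 animal or a pool is not stated, so a p-value covers only the variation from array to array.

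Glutathione is a small thiol that cells build from amino acids, use to conjugate reactive compounds through glutathione transferases, and oxidise in glutathione peroxidases to remove hydroperoxides. Peroxiredoxins and thioredoxin run a parallel thiol cycle, superoxide dismutases turn superoxide into hydrogen peroxide, and catalase breaks that peroxide down. Several of these genes are known targets of the transcription factor Nrf2, which binds antioxidant response elements, and the secretory luminal cells of the prostate depend on androgen for their differentiated state.

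Levels are given as log2 RMA values, a background-corrected and normalised probe summary, from Affymetrix ClariomD arrays. A difference is given with its standard error from limma, and a gene is called changed where the Benjamini-Hochberg adjusted p over all 30142 genes was under 0.05. Between 788 and 870 rows of an array had values above 16, more than a 16-bit scan can hold, so the deposited scale carries a step that the sources used here do not give, and differences are left in log2 units of that scale. Probes differ in brightness, so no gene's level is set against another gene's. A level under 4.765, the 95th percentile of the background control rows, is described as within background. By the highest group mean, 14582 of the 30142 genes passed that level, as did 33 of the 39. Shares given over all genes are therefore not matched for level. In these bulk samples, fewer cells of a type and less RNA per cell cannot be told apart.

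The 10 arrays had row medians between 4.12 and 4.22. Along the leading principal component (44.3% of variance), regenerated replicate 4 lay at 3.03 and the other regenerated arrays between -31.0 and -23.2, against 64.1 to 75.5 for castrated and -47.6 to -40.5 for intact arrays. Of the 7 luminal markers measured, Krt8, Krt18, Cd24a, Epcam, Cdh1 and Pbsn were at 13.85 or above in every array. Luminal markers still differed between groups. Of the 7, 3 were called higher and 1 lower in castrated against intact arrays (8.01% of all genes were called). In regenerated against castrated arrays 2 were called higher and 2 lower (4.98% were called). Krt8 averaged 15.15 in regenerated, 17.20 in castrated and 15.83 in intact arrays, and Pbsn 19.26, 17.71 and 18.22. Hoxb13, whose promoter drives the reporter, was at 10.27, 9.61, 9.76 and 8.26 in regenerated, at 7.93, 7.75 and 7.54 in castrated, and at 10.54, 10.19 and 10.43 in intact arrays. All 3 endothelial markers, 4 of 5 stromal and 5 of 7 leukocyte markers were within background on every array. The exceptions were Dcn, which was at 10.94 to 11.89 in regenerated, 6.63 to 9.09 in castrated and 11.40 to 12.77 in intact arrays, Cd3e, at 5.73 to 7.38 in regenerated, 8.26 to 11.76 in castrated and 5.40 to 8.18 in intact arrays, and Lyz2, which passed background in regenerated replicate 2 (7.43), castrated replicate 1 (6.52) and intact replicate 3 (6.59). The stromal markers together, as log2 of their summed linear values, spanned 10.99 to 11.92 in regenerated, 7.40 to 9.27 in castrated and 11.43 to 12.78 in intact arrays, and the leukocyte markers spanned 7.30 to 8.23 in regenerated, 8.69 to 11.80 in castrated and 7.75 to 8.58 in intact arrays. The stromal sum was mostly Dcn in every array, and the leukocyte sum in castrated arrays was mostly Cd3e. To that extent these sums repeat the values of those genes. Of 4 basal markers, Krt15 stood out at 11.42 to 14.02 in regenerated, 10.43 to 11.56 in castrated and 9.80 to 10.04 in intact arrays, while Krt5, Krt14 and Trp63 did not pass 5.41. The 4 seminal vesicle markers together spanned 7.06 to 17.43 in regenerated, 13.94 to 15.63 in castrated and 12.05 to 16.01 in intact arrays. In castrated arrays that sum was almost all Pate4 (13.92 to 15.63), and Svs2, Svs4 and Svs5 did not pass 7.10 there. In intact arrays Svs2 was at 7.92 to 12.17, Svs4 at 5.10 to 10.58, Svs5 at 9.95 to 14.90 and Pate4 at 11.54 to 14.83. The erythrocyte marker Alas2 was at 6.24 to 6.71 in regenerated, 6.54 to 8.18 in castrated and 6.29 to 6.67 in intact arrays. The part of these markers in the results was not tested.

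Between castrated and intact arrays, 2 of 39 (5.13%) were called, against 8.01% of all genes. Both, Gsta2 and Gstm1, were higher in castrated arrays, where 4.82% of all genes were called higher and 3.19% lower. Between regenerated and castrated arrays, 2 of 39 (5.13%) were called, against 4.98% of all genes: Gsta3 was higher in regenerated arrays (1.97% of all genes were) and Gsta2 was lower (3.01% were). Between regenerated and intact arrays none of the 39 was called by limma, 5 had an unadjusted p under 0.05, and with arrays weighted by quality 1 (Gsta3) was called. The background there was 0.0365% of all genes, of which 0.0332% were higher and 0.00332% lower in regenerated arrays. The 3 genes called in any comparison are among the 19 glutathione transferases, of which 2 (10.5%) were called in each comparison with castrated arrays, and the other 36 genes were called in none. An unadjusted p under 0.05 was reached by 11 of the 39 (28.2%, against 20.7% of all genes) between castrated and intact arrays, by 8 (20.5%, against 18.9%) between regenerated and castrated arrays, and by 5 (12.8%, against 3019 of all 30142 genes) between regenerated and intact arrays.

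The arrays of castrated and intact mice did not overlap for 13 of the 39 genes (33.3%), against 28.9% of all genes. Regenerated and castrated arrays did not overlap for 6 (15.4%), against 16% of all genes, and regenerated and intact arrays for 2 (5.13%), against 9.65%. The median difference over the 39 was 0.04 for castrated minus intact, -0.04 for regenerated minus castrated and 0.00 for regenerated minus intact, against 0.04, -0.01 and 0.01 over all genes. By share called and by median the 39 lay near the background in the comparisons with castrated arrays.

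**Figure D1:**
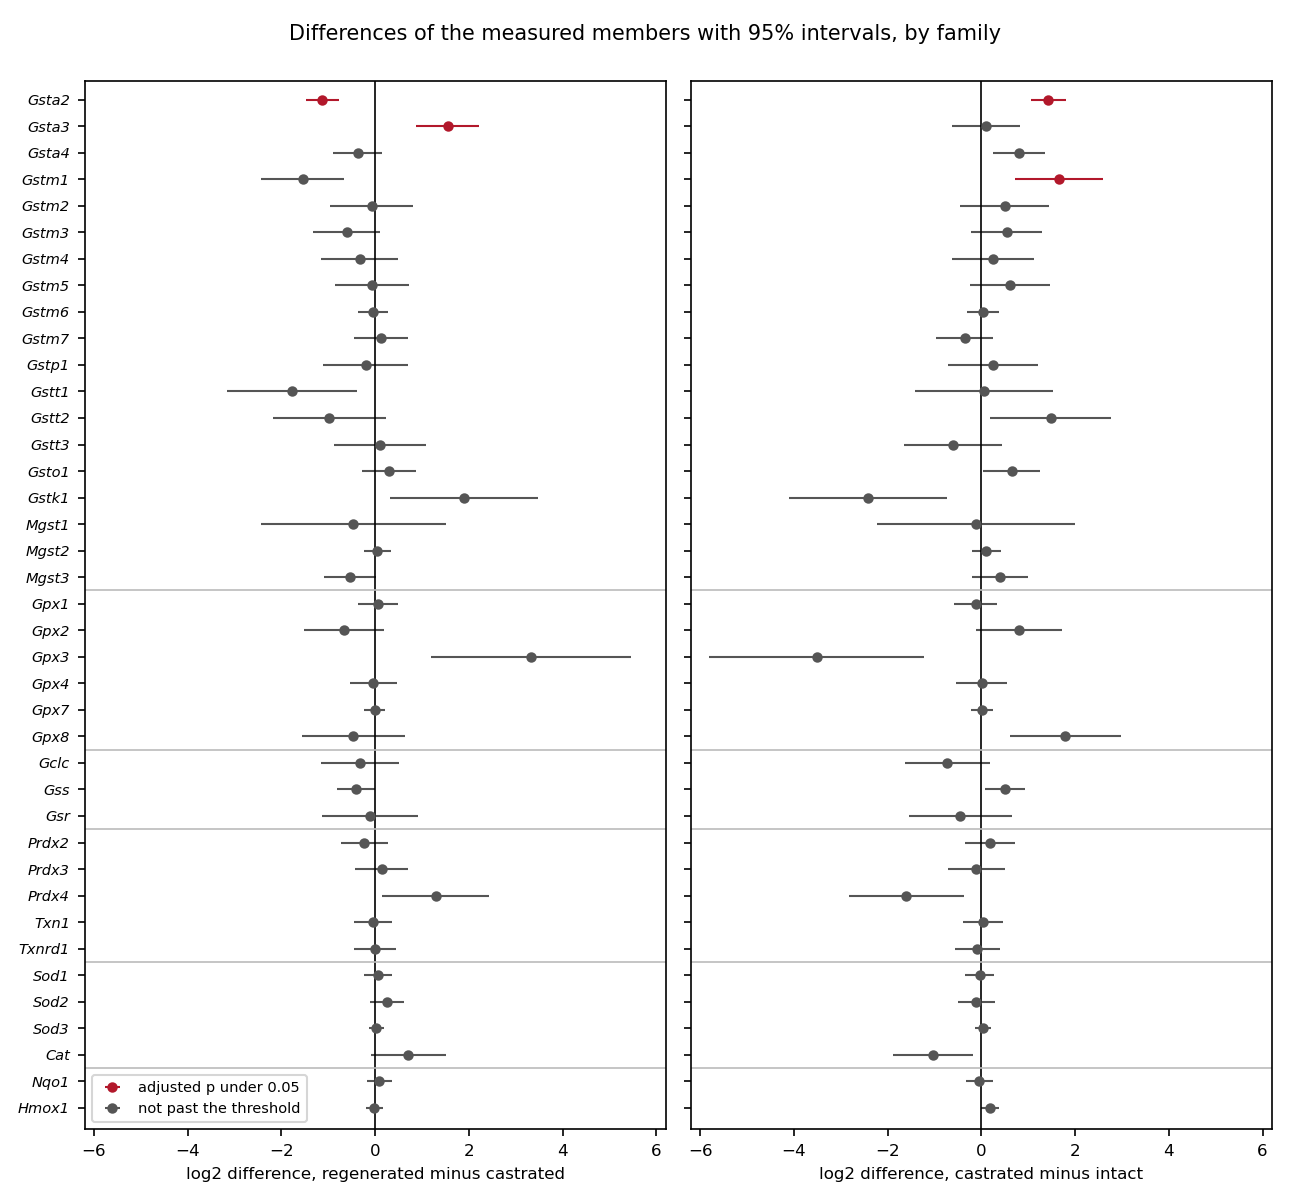
Log2 differences of the 39 measured genes with 95% intervals, regenerated minus castrated on the left and castrated minus intact on the right, with grey lines between families. Red points mark the calls, which are Gsta2 and Gsta3 on the left and Gsta2 and Gstm1 on the right; Gpx3 has the largest differences (3.33 and -3.52) and the widest intervals of the peroxidases.

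Promoter sequence is shown for the 3 called genes and for Gpx3, the gene with the largest difference. Each line gives the 250 bases before the RefSeq transcription start on build GRCm38.p6, written 5′ to 3′ along the gene's own strand, in lower case with motif matches in capitals. Both strands were searched for TGACNNNGC, the core of the antioxidant response element, and for AGAACA, the half-site of the androgen receptor, which reads TGTTCT on the other strand. The Gsta2 stretch is chr9:78347146-78347395 on the minus strand, Gsta3 is chr1:21240335-21240584 on the plus strand, Gstm1 is chr3:108017974-108018223 on the minus strand, and Gpx3 is chr11:54902604-54902853 on the plus strand.
Gsta2: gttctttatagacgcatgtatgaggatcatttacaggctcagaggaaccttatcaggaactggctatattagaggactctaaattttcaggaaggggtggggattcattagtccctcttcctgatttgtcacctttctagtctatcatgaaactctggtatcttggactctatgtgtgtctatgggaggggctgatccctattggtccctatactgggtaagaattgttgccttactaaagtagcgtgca
Gsta3: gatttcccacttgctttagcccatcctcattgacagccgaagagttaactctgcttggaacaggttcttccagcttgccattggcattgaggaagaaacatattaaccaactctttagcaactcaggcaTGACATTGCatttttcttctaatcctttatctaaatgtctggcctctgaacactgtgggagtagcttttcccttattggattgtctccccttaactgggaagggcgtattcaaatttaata
Gstm1: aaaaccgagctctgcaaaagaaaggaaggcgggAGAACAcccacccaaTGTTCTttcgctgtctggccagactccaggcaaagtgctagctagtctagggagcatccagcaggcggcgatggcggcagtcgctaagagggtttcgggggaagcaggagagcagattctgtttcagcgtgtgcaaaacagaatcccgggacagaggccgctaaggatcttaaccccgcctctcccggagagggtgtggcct
Gpx3: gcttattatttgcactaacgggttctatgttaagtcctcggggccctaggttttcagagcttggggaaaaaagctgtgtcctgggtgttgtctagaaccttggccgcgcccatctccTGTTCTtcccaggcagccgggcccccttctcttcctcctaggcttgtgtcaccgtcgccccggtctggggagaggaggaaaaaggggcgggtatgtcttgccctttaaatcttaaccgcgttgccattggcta

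The Gsta3 stretch holds 1 antioxidant element core, TGACATTGC, at bases -121 to -113 from the start. In the Gstm1 stretch AGAACA stands at -217 to -212 and TGTTCT at -202 to -197, both in the stretch before the first of its 2 annotated starts; the stretch before the second start, chr3:108017819-108018068, holds neither motif. Gpx3 has TGTTCT at -133 to -128, and the letters of neither motif occur in the Gsta2 window. The antioxidant core occurs in 10.161% of 32851 mouse promoters of this length and in 6 of 45 promoters (13.333%) of the 33 measured genes found in the RefSeq table, which belong to Gsta3, Gstm5, Gstm7, Mgst1, Sod1 and Txnrd1. The androgen half-site occurs in 16.085% of the 32851 and in 8 of those 45 (17.778%), which belong to Cat, Gpx3, Gstm1, Gstm6, Mgst1, Mgst3 and Txnrd1. These matches describe letters only.

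Alpha-class transferases conjugate products of lipid peroxidation and bind bulky organic compounds, and their 3 measured genes followed different patterns. Gsta2 was at 5.87, 5.60, 5.68 and 5.77 in regenerated arrays, at 6.93, 6.69 and 6.96 in castrated arrays, and at 5.22, 5.32 and 5.77 in intact arrays. Every castrated array lay above every array of the other groups. Gsta2 rose in castrated against intact arrays by 1.42 ± 0.17 log2 (SE, limma adjusted p = 0.000864) and fell in regenerated against castrated arrays by 1.13 ± 0.16 (adjusted p = 0.00265). These comparisons share the castrated arrays. Both calls held under all 18 alternatives run, which include leaving out each array in turn. Regenerated minus intact was 0.30, with a 95% interval of -0.05 to 0.65. Gsta2 belongs to a family with near-identical copies, and how far its probes separate it from Gsta1 was not tested.

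Gsta3 encodes an alpha-class enzyme that in mice conjugates the epoxide of aflatoxin, and whose human counterpart acts on steroids as an isomerase. It was at 6.92, 8.20, 7.87 and 7.77 in regenerated arrays, at 5.65, 6.34 and 6.44 in castrated arrays and at 5.82, 5.98 and 6.35 in intact arrays. All 4 regenerated arrays lay above all 6 others, and castrated and intact arrays overlapped. Gsta3 rose in regenerated against castrated arrays by 1.55 ± 0.30 (adjusted p = 0.0167), and without castrated replicate 1 the difference was 1.30 with an adjusted p of 0.0617. Regenerated minus intact was 1.64 ± 0.30, which missed the threshold (adjusted p = 0.151) but passed it without regenerated replicate 1 (1.90, adjusted p = 0.0232). Castrated minus intact was 0.09, with an interval of -0.63 to 0.81. Gsta4, whose enzyme detoxifies hydroxynonenal, averaged 13.24 ± 0.20 in regenerated, 13.61 ± 0.37 in castrated and 12.81 ± 0.26 in intact arrays (SD), and its difference of 0.80 ± 0.25 between castrated and intact arrays missed the threshold (adjusted p = 0.0813).

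Mu-class transferases conjugate epoxides and other electrophiles, and all 7 genes of the class sit in the table. Gstm1 was at 12.50, 11.01, 11.03 and 11.20 in regenerated arrays, at 13.12, 13.20 and 12.63 in castrated arrays and at 11.08, 10.95 and 11.96 in intact arrays. Castrated arrays were highest with no overlap, and regenerated replicate 1 lay apart from the other 3 of its group. Gstm1 rose in castrated against intact arrays by 1.65 ± 0.43 (adjusted p = 0.0402). That call was lost without any single castrated array (adjusted p = 0.104, 0.123 and 0.0627 without replicates 1, 2 and 3), without intact replicate 1 (0.151) or 2 (0.147), without regenerated replicate 2 (0.0543) or 3 (0.0520), and with arrays centred on their medians (0.0577) or quantile normalised again (0.0565). Regenerated minus castrated was -1.55 ± 0.40 (adjusted p = 0.0532), which passed without regenerated replicate 1 (-1.90, adjusted p = 0.00951) and without intact replicate 3 (adjusted p = 0.0491). Mu genes are close copies of each other, so shared probes could carry part of a neighbour's signal.

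The other mu genes were not called in any comparison. Gstm2, Gstm3, Gstm4 and Gstm5 had castrated minus intact differences of 0.49, 0.54, 0.25 and 0.61, all with intervals that include 0. Gstm6 lay at 4.28 to 4.79, around the background limit, and Gstm7 was at 6.64 to 7.56 in regenerated, 6.58 to 6.90 in castrated and 6.72 to 7.48 in intact arrays. The class shared its highest arrays. Regenerated replicate 1 was the highest regenerated array for all 7 mu genes, where it was highest for 24.6% of all genes, and intact replicate 3 was the highest intact array for all 7, where it was highest for 45.3% of all genes. Gstm2 shows the size of this: regenerated replicate 1 had 14.29 and the other regenerated arrays 13.17 to 13.52, while intact replicate 3 had 14.08 and the other intact arrays 12.61 and 12.72. No array stood out in the same way among castrated samples, where each array was highest for 1 to 3 of the 7. The pattern was not confined to mu genes. Of all 39 genes, mu genes included, regenerated replicate 1 was highest in its group for 21 (53.8%) and intact replicate 3 for 20 (51.3%). Outside the class, both arrays were highest in their groups for Gsta2, Gsta4, Gstp1, Gstt2, Gstt3 and Gstk1.

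**Figure D2:**
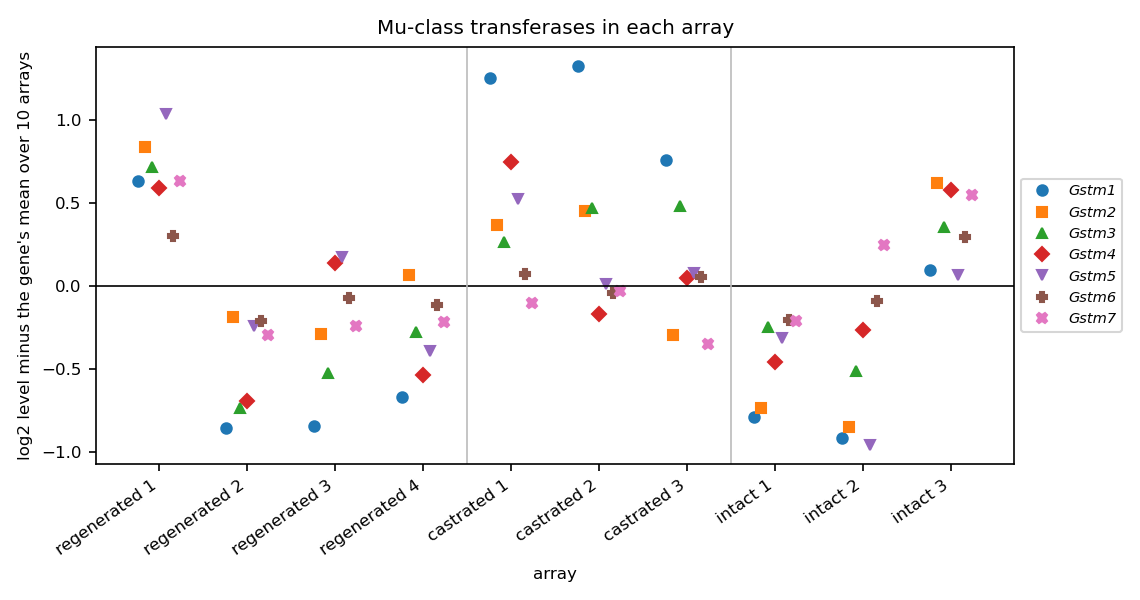
Levels of the 7 mu-class genes in each of the 10 arrays, as log2 level minus the gene's mean over all arrays, 1 marker shape for each gene. Regenerated replicate 1 and intact replicate 3 carry the highest value of their group for every gene, and Gstm1 has the highest value of the 7 in each castrated array.

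Gstp1, the pi-class transferase that is often silenced in human prostate cancer, averaged 13.81 ± 0.82 in regenerated, 14.01 ± 0.04 in castrated and 13.77 ± 0.51 in intact arrays. Its castrated minus intact difference was 0.25, with an interval of -0.71 to 1.21. Theta-class enzymes act on small halogenated molecules and sulfate esters. Gstt1, singled out after its values were seen, was at 11.74, 9.92, 10.90 and 8.50 in regenerated, at 12.33, 11.80 and 11.99 in castrated and at 12.45, 12.03 and 11.46 in intact arrays. Regenerated arrays lay below castrated ones without overlap and spread over more than 3 log2 units. Regenerated minus castrated was -1.77 ± 0.62 (adjusted p = 0.149) and passed the threshold without regenerated replicate 1 (-2.27, adjusted p = 0.0462); regenerated minus intact was -1.71 ± 0.62 (adjusted p = 0.380). Gstt2 averaged 8.33 ± 0.97 in regenerated, 9.30 ± 0.33 in castrated and 7.83 ± 0.99 in intact arrays, with a castrated minus intact difference of 1.48 ± 0.59 (adjusted p = 0.176). Gstt3 averaged 7.59 in regenerated, 7.49 in castrated and 8.10 in intact arrays, and the intervals of its 3 differences include 0.

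Gsto1, an omega-class enzyme that reduces dehydroascorbate, was at 5.35 to 6.60 in regenerated, 5.43 to 5.95 in castrated and 5.04 to 5.11 in intact arrays. Both other groups lay above intact without overlap, by 0.95 ± 0.26 for regenerated (adjusted p = 0.269) and 0.65 ± 0.27 for castrated arrays (adjusted p = 0.206), and neither passed the threshold. Gstk1, singled out after its values were seen, encodes the kappa-class enzyme of mitochondria and peroxisomes. It was at 11.62, 10.55, 11.33 and 7.96 in regenerated, at 8.50, 8.42 and 8.49 in castrated and at 10.54, 10.93 and 11.19 in intact arrays. Castrated arrays were tightly grouped below all intact arrays, and regenerated replicate 4 lay below even the castrated arrays. Castrated minus intact was -2.42 ± 0.76 (adjusted p = 0.0851) and regenerated minus castrated 1.90 ± 0.71 (adjusted p = 0.176). Without regenerated replicate 4 both were called, at -2.42 (adjusted p = 0.000883) and 2.70 (adjusted p = 0.000647).

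Microsomal transferases are membrane enzymes, of which Mgst2 and Mgst3 can also make leukotriene conjugates. Mgst1 varied widely within the intact group, at 10.20, 10.95 and 7.17 in intact arrays, against 7.74 to 10.49 in regenerated and 8.83 to 10.09 in castrated arrays. Mgst2 was within background by its group means, and Mgst3 averaged 9.03 ± 0.43 in regenerated, 9.57 ± 0.11 in castrated and 9.17 ± 0.22 in intact arrays. None of the 3 was called, and none had an unadjusted p under 0.05.

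Among the 6 glutathione peroxidases none was called in any comparison, and 2, 1 and 1 had an unadjusted p under 0.05 in the castrated-intact, regenerated-castrated and regenerated-intact comparisons. Gpx3, the secreted plasma peroxidase, was at 13.74, 13.04, 13.46 and 11.12 in regenerated arrays, at 12.32, 8.35 and 7.87 in castrated arrays and at 13.00, 13.27 and 12.81 in intact arrays. Castrated arrays lay below intact ones without overlap, but castrated replicate 1 was close to the lowest intact array while the other castrated arrays were far below. Castrated minus intact was -3.52 ± 1.03 (adjusted p = 0.0671), and regenerated minus castrated was 3.33 ± 0.97 (adjusted p = 0.0821). Without castrated replicate 1 these were -4.92 (adjusted p = 0.00394) and 4.73 (adjusted p = 0.00483), and without regenerated replicate 4 they were -3.52 (adjusted p = 0.0426) and 3.90 (adjusted p = 0.0377). Regenerated minus intact was -0.19, with an interval of -2.33 to 1.95.

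Gpx4, which reduces lipid hydroperoxides in membranes and restrains ferroptosis, was at 7.78, 7.32, 7.93 and 6.96 in regenerated, at 7.62, 7.51 and 7.47 in castrated and at 7.49, 7.55 and 7.55 in intact arrays. The groups overlapped, and castrated minus intact was 0.00 with an interval of -0.53 to 0.54. Gpx1, the cytosolic peroxidase, averaged 15.15 ± 0.23 in regenerated, 15.09 ± 0.31 in castrated and 15.21 ± 0.07 in intact arrays, and its castrated minus intact interval ran from -0.58 to 0.34. Gpx8, a peroxidase of the endoplasmic reticulum singled out after its values were seen, was at 7.64, 8.18, 8.18 and 7.22 in regenerated, at 8.35, 8.09 and 8.37 in castrated and at 5.42, 6.06 and 7.94 in intact arrays. Intact replicate 3 lay near the castrated arrays and the other intact arrays well below. Castrated minus intact was 1.79 ± 0.53 (adjusted p = 0.0699), and without intact replicate 3 it was 2.53 (adjusted p = 0.00271). Gpx2, the peroxidase of the gut epithelium, averaged 4.99, 5.66 and 4.86 in regenerated, castrated and intact arrays, and Gpx7 was within background at 3.57 to 3.98.

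**Figure D3:**
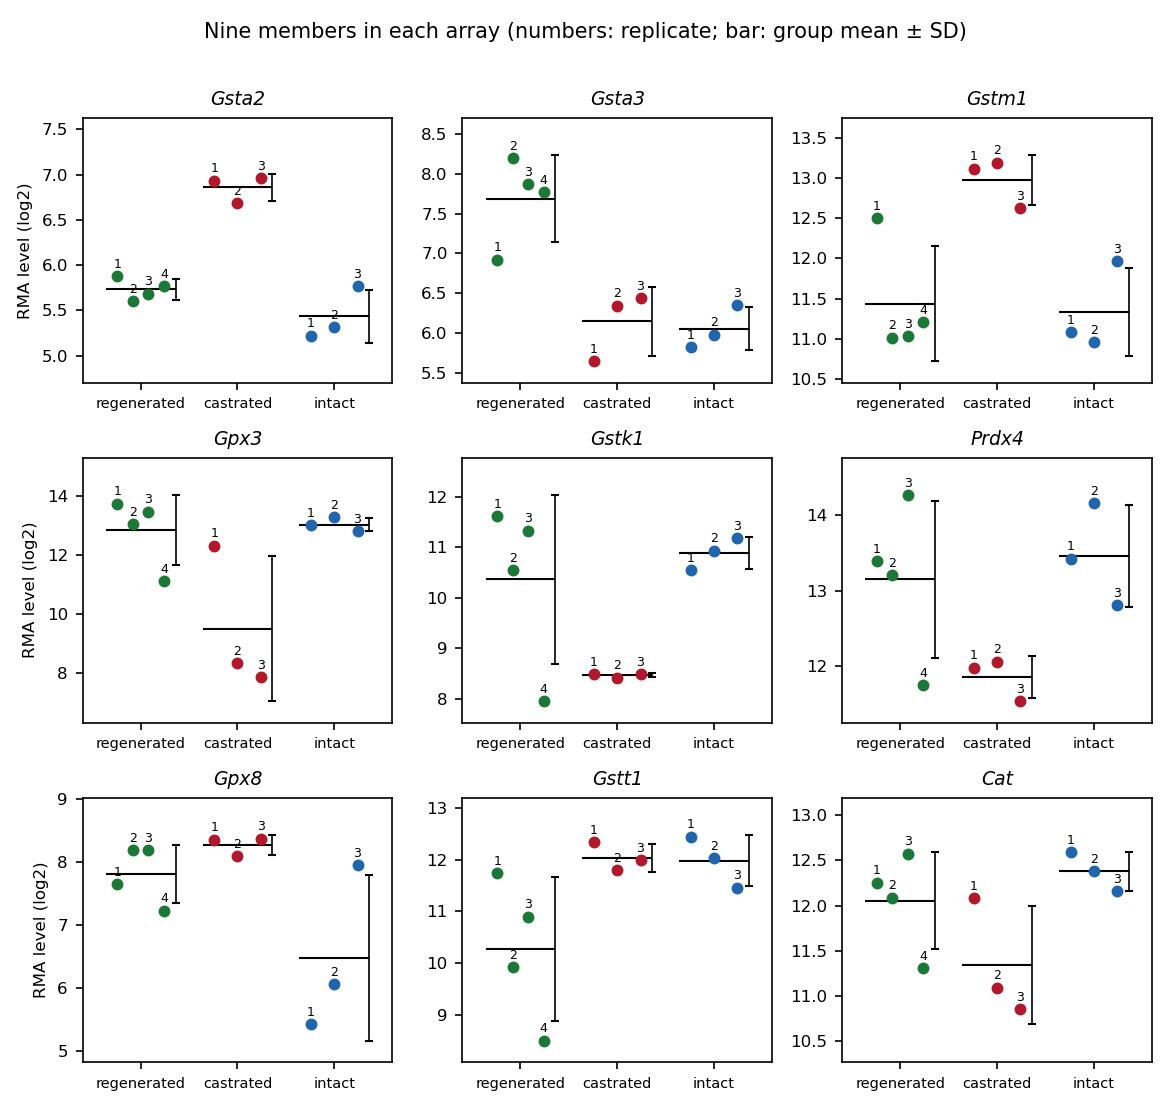
Log2 RMA levels of 9 genes in each array, with the replicate number above each point and the group mean and SD as a bar. Gsta2 and Gstm1 are highest in castrated arrays and Gsta3 in regenerated arrays, Gpx3 and Cat have castrated replicate 1 apart from the other castrated arrays, and regenerated replicate 4 lies at 7.96 for Gstk1 and 11.75 for Prdx4.

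Glutathione supply was covered by Gclc, the catalytic subunit of the rate-limiting ligase, Gss, the synthetase, and Gsr, the reductase that regenerates reduced glutathione. None was called, and 1 had an unadjusted p under 0.05 in each comparison. Gclc averaged 8.80 ± 0.75 in regenerated, 9.12 ± 0.30 in castrated and 9.84 ± 0.35 in intact arrays, and regenerated minus intact was -1.05 ± 0.38 (adjusted p = 0.378). Gss averaged 6.25 ± 0.11 in regenerated, 6.65 ± 0.38 in castrated and 6.15 ± 0.15 in intact arrays, and castrated minus intact was 0.50 ± 0.19 (adjusted p = 0.162). Gsr was at 8.69, 7.88, 8.40 and 6.57 in regenerated, at 8.59, 8.06 and 7.31 in castrated and at 8.41, 8.52 and 8.37 in intact arrays. All groups overlapped for Gsr, and castrated minus intact was -0.45 with an interval of -1.55 to 0.65.

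In the peroxiredoxin and thioredoxin system none of the 5 genes was called, and 1 of them, Prdx4, had an unadjusted p under 0.05 in the comparisons with castrated arrays, with none for regenerated against intact. Prdx4, the peroxiredoxin of the endoplasmic reticulum, singled out after its values were seen, was at 13.39, 13.20, 14.27 and 11.75 in regenerated, at 11.98, 12.06 and 11.54 in castrated and at 13.42, 14.16 and 12.80 in intact arrays. Castrated arrays lay below intact ones, and of the regenerated arrays only replicate 4 fell within the castrated range. Castrated minus intact was -1.61 ± 0.55 (adjusted p = 0.117) and regenerated minus castrated 1.29 ± 0.52 (adjusted p = 0.208). Without regenerated replicate 4 both were called, at -1.61 (adjusted p = 0.0242) and 1.76 (adjusted p = 0.0224). Prdx2 and Prdx3, the cytosolic and mitochondrial peroxiredoxins, had castrated minus intact differences of 0.18 and -0.11 with intervals that include 0.

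Thioredoxin itself (Txn1) averaged 15.27 ± 0.22 in regenerated, 15.31 ± 0.11 in castrated and 15.28 ± 0.23 in intact arrays. Its reductase gene Txnrd1 was at 7.74, 7.99, 7.71 and 7.42 in regenerated, at 8.04, 7.54 and 7.56 in castrated and at 8.01, 7.68 and 7.71 in intact arrays. The groups overlapped for both. The castrated minus intact intervals ran from -0.40 to 0.45 for Txn1 and from -0.57 to 0.39 for Txnrd1.

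Sod1, the cytosolic superoxide dismutase, was at 18.46, 18.29, 18.30 and 17.95 in regenerated arrays, at 18.26, 18.26 and 18.06 in castrated arrays and at 18.17, 18.26 and 18.24 in intact arrays. All groups overlapped, and castrated minus intact was -0.03 with an interval of -0.35 to 0.28. These values lie high on the scale, where changes may be compressed. Sod2, the mitochondrial enzyme, averaged 7.61 ± 0.19, 7.36 ± 0.12 and 7.47 ± 0.10 in regenerated, castrated and intact arrays, and Sod3, the extracellular enzyme, was within background at 3.55 to 3.79. Cat, which encodes catalase, was at 12.25, 12.09, 12.57 and 11.31 in regenerated, at 12.08, 11.09 and 10.85 in castrated and at 12.59, 12.38 and 12.16 in intact arrays. Castrated arrays lay below intact ones, narrowly so for castrated replicate 1. Castrated minus intact was -1.03 ± 0.38 (adjusted p = 0.148) and regenerated minus castrated 0.71 ± 0.36 (adjusted p = 0.323). Without castrated replicate 1, the array in which Gpx3 was also high, the differences were -1.40 (adjusted p = 0.0536) and 1.08 (adjusted p = 0.133). None of these 4 genes was called in any comparison, and only Cat, for castrated against intact, had an unadjusted p under 0.05 (20.7% of all genes did).

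Nqo1 and Hmox1, the quinone reductase and heme oxygenase often read as markers of Nrf2 activity, were within background on every array. Nqo1 was at 3.19, 3.30, 3.33 and 3.76 in regenerated, at 3.49, 3.19 and 3.24 in castrated and at 3.33, 3.31 and 3.40 in intact arrays. Hmox1 was at 4.09, 3.90, 4.03 and 3.86 in regenerated, at 4.09, 3.96 and 3.91 in castrated and at 3.73, 3.91 and 3.76 in intact arrays. Neither was called and neither had an unadjusted p under 0.05. At these levels a change may be compressed.

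Regenerated replicate 4 was the lowest regenerated array for 25 of the 39 genes (64.1%), against 32.2% of all genes. It also had the lowest Hoxb13 of its group (8.26) and the highest seminal vesicle genes Svs2, Svs5 and Pate4 (12.91, 15.59 and 16.87, against 5.14 to 10.60, 5.09 to 11.64 and 4.59 to 14.97 in the other regenerated arrays). None of these seminal vesicle genes was called in any comparison. Svs2 was at 4.57 to 5.25 in castrated and 7.92 to 12.17 in intact arrays, and Svs5 at 6.23 to 7.10 in castrated and 9.95 to 14.90 in intact arrays. Pate4 overlapped between those groups, at 13.92 to 15.63 in castrated and 11.54 to 14.83 in intact arrays. Without regenerated replicate 4, 5 genes were called for castrated against intact (Gsta2 and Gstm1 higher, Gpx3, Gstk1 and Prdx4 lower) and 5 for regenerated against castrated (Gpx3, Gsta3, Gstk1 and Prdx4 higher, Gsta2 lower). Calls also became more frequent over all 30142 genes, at 3271 and 2127 without that array against 2414 and 1500 with it. No regenerated array enters a castrated minus intact difference, so those differences were the same with and without this array. It enters that comparison only through the spread estimated over all 3 groups. The part of this array's composition in the regenerated minus castrated differences was not tested.

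Genes of the same chemistry outside the 39 were taken from 5 lists, chosen with earlier results of these data known. Of 12 further Nrf2 target genes, 4 rose and 1 fell in castrated against intact arrays, against 4.82% and 3.19% of all genes. Me1, the cytosolic malic enzyme that makes NADPH, was at 6.34, 7.73, 7.53 and 7.99 in regenerated, at 8.17, 8.08 and 8.68 in castrated and at 5.91, 5.44 and 5.69 in intact arrays. Castrated arrays lay above all others, and regenerated arrays lay above intact ones. Me1 rose in castrated against intact arrays by 2.63 ± 0.38 (adjusted p = 0.00226), and regenerated minus intact was 1.72 ± 0.35 (adjusted p = 0.200). Ephx1, the microsomal epoxide hydrolase, rose by 1.95 ± 0.42 (adjusted p = 0.0174). Ftl1, the ferritin light chain, rose by 1.21 ± 0.24 (adjusted p = 0.0123), with 12.62, 12.64 and 12.64 in castrated and 11.11, 11.39 and 11.78 in intact arrays. Abcc1, an exporter of glutathione conjugates named after its values were seen, rose by 0.50 ± 0.13 (adjusted p = 0.0435), and Pgd, an enzyme of the pentose phosphate pathway, fell by 1.26 ± 0.27 (adjusted p = 0.0181).

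For regenerated against castrated arrays none of the 12 Nrf2 targets was called by limma, but 10 (83.3%) had an unadjusted p under 0.05, against 18.9% of all genes. All 12 had group means above background, unlike many of the genes behind that share. The median of the 12 differences was -0.57, against -0.01 over all genes, and 9 of the 12 were negative. Ephx1 had -1.46 ± 0.39 (adjusted p = 0.0605) and Osgin1, an oxidative stress growth inhibitor, -1.04 ± 0.34 (adjusted p = 0.115). Of the 9 regulators of the pathway, 1 rose in castrated against intact arrays (4.82% of all genes did) and 2 fell in regenerated against castrated arrays (3.01% did), all of them calls on small Maf partners of Nrf2. Maff rose by 0.92 ± 0.24 (adjusted p = 0.0442) and fell by 1.35 ± 0.23 in regenerated against castrated arrays (adjusted p = 0.00748), and Mafk fell by 0.99 ± 0.22 in regenerated against castrated arrays (adjusted p = 0.0283). Nfe2l2, which encodes Nrf2, averaged 5.92 ± 0.28 in regenerated, 6.62 ± 0.47 in castrated and 5.93 ± 0.24 in intact arrays and was not called.

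Of 24 other glutathione enzymes and transporters, 1 (4.17%) was called in each comparison with castrated arrays, against 8.01% of all genes for castrated-intact and 4.98% for regenerated-castrated. Castrated and intact arrays did not overlap for 14 of the 24 (58.3%, against 28.9% of all genes), and 9 of the 24 (37.5%, against 18.9%) had an unadjusted p under 0.05 between regenerated and castrated arrays. Gsto2, a second omega-class transferase, rose in castrated against intact arrays by 1.34 ± 0.31 (adjusted p = 0.0243), and Chac1, which degrades glutathione, rose in regenerated against castrated arrays by 0.79 ± 0.16 (adjusted p = 0.0193). Among 16 further thioredoxin and methionine sulfoxide enzymes, 1 (Msrb3) rose and 3 fell in castrated against intact arrays, where 4.82% of all genes rose and 3.19% fell. Sesn1, Sesn2 and Sesn3 encode sestrins, stress-induced regulators of peroxide and nutrient signalling. Sesn1 fell by 1.58 ± 0.33 (adjusted p = 0.0160) and Sesn2 by 1.36 ± 0.33 (adjusted p = 0.0316) in castrated against intact arrays, and their regenerated minus castrated differences were 0.84 (adjusted p = 0.168) and 1.08 (adjusted p = 0.0789). Sesn3 fell by 1.69 ± 0.32 in regenerated against castrated arrays (adjusted p = 0.0139), and its castrated minus intact difference was 1.10 (adjusted p = 0.0827). Selenot, a selenoprotein of the endoplasmic reticulum, fell in castrated against intact arrays by 1.28 ± 0.31 (adjusted p = 0.0304). Msrb3, a methionine sulfoxide reductase, rose there by 1.02 ± 0.23 (adjusted p = 0.0236) and fell in regenerated against castrated arrays by 1.02 ± 0.22 (adjusted p = 0.0251).

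Of 15 genes for oxidases that produce superoxide or peroxide, 2 rose in castrated against intact arrays (4.82% of all genes did) and 1 fell in regenerated against castrated arrays (3.01% did). Cyba, a membrane subunit shared by several NADPH oxidases, was at 6.45, 8.54, 7.91 and 7.57 in regenerated, at 9.61, 8.88 and 10.01 in castrated and at 5.64, 5.86 and 5.92 in intact arrays. The 3 groups did not overlap, with castrated arrays highest. Cyba rose in castrated against intact arrays by 3.69 ± 0.46 (adjusted p = 0.00120) and fell in regenerated against castrated arrays by 1.88 ± 0.43 (adjusted p = 0.0332). Regenerated minus intact was 1.81 ± 0.43 (adjusted p = 0.255). Noxo1, an organiser of the same oxidase family, rose in castrated against intact arrays by 1.29 ± 0.32 (adjusted p = 0.0345). The oxidase genes Nox1, Nox4, Cybb, Duox1 and Duox2 of this list, and Ncf1, were within background on every array. Of the 7 leukocyte markers, Cd3e differed in the same directions as Cyba, with 4.04 less in regenerated than in castrated arrays (adjusted p = 0.0253) and 3.39 more in castrated than in intact arrays (adjusted p = 0.0507). Itgam was also higher in castrated than in intact arrays, at 4.29 ± 0.12 against 3.91 ± 0.07 (adjusted p = 0.0181), with both groups within background, and Ptprc, Adgre1, Cd79a and Csf1r were within background on every array. The part of these markers in the Cyba and Noxo1 differences was not tested.

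For regenerated against intact arrays no gene of the 5 lists was called by limma. An unadjusted p under 0.05 was reached by 1 of 9 regulators, 5 of 12 Nrf2 targets, 1 of 24 glutathione genes, 3 of 16 thioredoxin genes and 3 of 15 oxidases, against 3019 of all 30142 genes. Without regenerated replicate 1, Me1 (2.07, adjusted p = 0.0104) and Cyba (2.20, adjusted p = 0.0398) were called. The largest differences were -0.59 for Cul3 and -0.55 for Bach1 among regulators, -0.92 for Osgin1 after Me1 among targets, and -0.70 for Glrx5 and 0.62 for Chac1 among glutathione genes. Selenot had -0.85 and Sesn1 -0.74 among thioredoxin genes, and Maoa had -0.73 after Cyba among oxidases.

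Of the 18 calls on pathway genes named by rule, 3 held under all alternatives run, namely Me1 and Cyba for castrated against intact and Maff for regenerated against castrated. The other 15 were lost under at least 1 alternative, with adjusted p between 0.0507 and 0.133. Of the 12 calls for castrated against intact, 10 were lost without intact replicate 1 (adjusted p up to 0.133), 9 without intact replicate 2 (up to 0.118), 4 without intact replicate 3 (up to 0.118), 6 without castrated replicate 1 (up to 0.112), 4 without castrated replicate 2 (up to 0.0955) and 6 without castrated replicate 3 (up to 0.115). Leaving out regenerated replicates 1, 2 or 3 ended 1, 3 and 1 of them. Of the 6 calls for regenerated against castrated, 4, 2 and 2 were lost without castrated replicates 1, 2 and 3 (up to 0.117), 2, 1 and 3 without regenerated replicates 1, 2 and 3, and 1 and 2 without intact replicates 1 and 2.

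**Figure D4:**
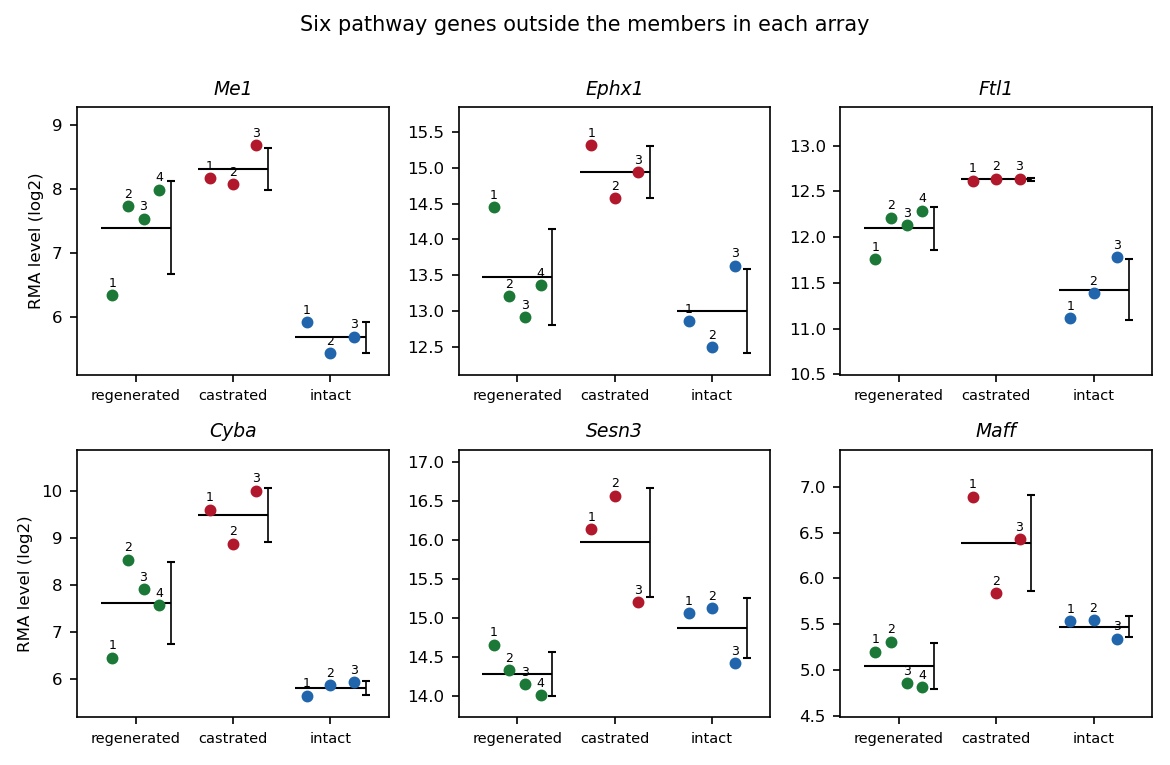
Log2 RMA levels of 6 pathway genes outside the 39 in each array, with the replicate number above each point and the group mean and SD as a bar. Cyba and Me1 separate castrated from intact arrays with regenerated arrays between them, and Ftl1 lies at 12.62 to 12.64 in castrated arrays.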

How the data were processed

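RNA of 10 sorted samples was hybridised to 1 ClariomD (MTA-1.0) array each. The authors deposited log2 values from RMA (Affymetrix Expression Console), as the submitters' processing notes record; versions and build are not given in the sources used here. This method normalises arrays towards a common distribution, which can reduce a shift shared by all transcripts; the deposited row medians still differed between arrays. Of 72688 rows, 30604 carried 1 gene symbol in the platform annotation (827 symbols were updated through an NCBI RefSeq table of GRCm38.p6), and the row with the highest mean was kept for a gene with several, which left 30142 genes. No column was left unused.

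limma 3.58.1 in R 4.3.3 fitted 1 model over the 3 groups with 7 residual degrees of freedom (lmFit, eBayes with a mean-variance trend; two-sided tests; Benjamini-Hochberg adjustment over the 30142 genes of a contrast; 95% intervals), after testing on simulated data. The 18 alternatives were other eBayes settings, array weights, a replicate block, a filter on dim rows, the mean of rows, 2 rescalings, and each array left out in turn.

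The members, lists and tests were chosen with earlier results of these data known. Array values are given for members called with a difference of at least 1 and for Gpx3, Gpx4, Gsr, Txnrd1, Nqo1, Hmox1, Sod1 and Cat; of each pathway list, up to 4 called genes with the largest difference per contrast are named, or the 2 largest where none passed. Arrays have no sequencing depth, and their number limits the precision. Promoters came from a RefSeq table of GRCm38.p6, read with Python 3.11.15 and pandas 2.3.3.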

Additional observations from a re-analysis of the deposited data

Results flagged for a closer look

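Gaps within the regenerated group were tested with Dixon's criterion for 4 samples, which chance passes in about 1 in 20 groups, and 2 of the 39 genes passed it. Gstm1 was at 12.50 in regenerated replicate 1, against 11.01 to 11.20 in the other regenerated arrays, and at 12.63 to 13.20 in castrated and 10.95 to 11.96 in intact arrays. Gstm7 was at 7.56 in regenerated replicate 1, against 6.64 to 6.71 in the other regenerated arrays. Both are mu-class transferases, and the same array had the highest value of its group for all 7 mu genes. It also had the highest value of its group for 21 of all 39 genes (53.8%).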

How the results depend on the processing

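The differences of the called members kept their sign under all alternatives. Of the 4 calls on members, the 2 on Gsta2 held under every alternative and those on Gsta3 and Gstm1 were lost under at least 1, while 13 of 113 differences not called passed under at least 1. For castrated against intact, where 2 members were called, array weights gave 9, the filter on dim rows 6, median centring 1 and renewed quantile normalisation 1. Of all genes, array weights called 4258 there, median centring 2270 and quantile normalisation 2525. The filter kept 33 members and 14582 genes, and 3000 of those genes were called. For regenerated against castrated, where 2 members were called, array weights gave 5, the filter 4 and the replicate block 4. Of all genes, array weights called 2236 there and the block 1637, and the filter called 2059 of its 14582. For regenerated against intact, array weights gave 1 member. Leaving out 1 array at a time gave 1 to 5, 2 to 5 and 0 to 1 members in the 3 comparisons. Of all genes, 2414 were called for castrated against intact (1019 to 3271 leaving out 1 array, 4258 with array weights), 1500 for regenerated against castrated (816 to 2127) and 11 for regenerated against intact (0 to 78). The last became 2 without the trend, 70 with array weights, 4 with the block, 26 with the filter, 3 after centring and 1 after quantile normalisation. The causes were not tested. The share of castrated against intact calls that were higher was 60.1%, and 47.8% after centring and 50.6% after quantile normalisation.

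Replicate numbers are shared by the groups, and deviations of same-numbered arrays correlated between -0.157 and 0.264, so the numbers were not taken as pairs. With the replicate number as a block, 3 members (Gpx3, Gsta2, Gstk1) were called for castrated against intact and 4 (Gpx3, Gsta2, Gsta3, Gstk1) for regenerated against castrated, with Gstm1 at an adjusted p of 0.0669 and 0.118. Of all genes, 2715 and 1637 were called with the block.

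Limits are the 3 or 4 arrays of a group, levels within background for 6 of the 39 genes, probes shared between close copies, and a scale whose top lies above the scanner range.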
